A study of Rattus norvegicus with 2 samples.

Results

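Expression of 47 genes of fatty acid synthesis, storage and oxidation was compared between a 5ppase array and a control array of cultured rat astrocytes. The genes were taken from a list of enzymes, carriers and regulators that was chosen with earlier results of these data known. Of the 47, 46 had at least 1 probe set with that gene's symbol alone, out of 14218 genes named on the array. No value is given for the elongase Elovl7. The list holds 14 synthesis genes and 33 genes of activation, storage, lipolysis, oxidation, binding and regulation.

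The cells were astrocytes, the main supporting glia of the brain, from the hippocampus of Sprague-Dawley rat embryos at day 18, of normal genotype. The 5ppase culture expressed 5ppase-IRES2-RFP, which links 5ppase to a red fluorescent protein, and the control culture carried the vector control IRES2-RFP, with the fluorescent protein alone. The series sets no calcium signalling (5ppase) against active calcium signalling (control), and each state was read on 1 single-colour Affymetrix array. The labels do not spell out 5ppase, a name commonly used for an inositol phosphate 5-phosphatase, which removes the second messenger IP3 and so limits release of stored calcium. The labels give neither the vector's promoter nor the share of cells that expressed it, nor the number of cultures behind each RNA sample.

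Fatty acids are built in the cytosol from citrate. Acly splits citrate to acetyl-CoA, acetyl-CoA carboxylase (Acaca, Acacb) makes malonyl-CoA, and fatty acid synthase (Fasn) joins the units into palmitate, which elongases (Elovl) lengthen and desaturases (Scd, Fads) unsaturate. Acyl-CoA synthetases (Acsl) activate fatty acids, which are then esterified into triglyceride and stored in droplets coated by perilipins (Plin), or enter mitochondria through carnitine palmitoyltransferases (Cpt) and are shortened by β-oxidation. In the brain, astrocytes are held to be the main site of fatty acid oxidation, and they supply lipids to neurons. The synthesis genes are textbook targets of the SREBP transcription factors, and the oxidation genes of PPAR alpha and its coactivator PGC-1 alpha.

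With 1 array per group there are no replicates, so no test was run, no p-value is given, and all differences describe these 2 arrays, whose number limits the precision. Nothing here separates a smaller share of cells of a type from less RNA per cell in such bulk samples. Each array held 31099 probe sets, with a median signal of 109.4 on the 5ppase array and 107.1 on the control array. A gene was read from its brightest probe set and compared when it lay above a signal floor of 62.0 on both arrays and reached 208 on at least 1, which left 8261 genes. All ratios below are 5ppase over control on the log2 scale, and their median over these genes was -0.017. The only internal repeat was a second probe set of the same gene. Over 1881 genes, the SD of the difference between 2 such probe sets, divided by the square root of 2, was 0.26 (log2). This value for a single probe set, smaller than the SD of the difference itself, is called the probe set spread below. Of the 47 genes, 36 were compared, 1 (Scd) was bright in 5ppase only, and 9 were too dim.

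Some defining astrocyte markers stayed under the signal floor. Of 14 astrocyte markers on the array 10 were compared, 8 of them lower in 5ppase, and 3 by at least 2-fold. Aqp4, the astrocyte water channel, was under the floor on the 5ppase array alone (25.1 in 5ppase and 432 in control), which gives only a bound, at least 6.97-fold lower in 5ppase. The signals of the 14 summed to 51189 in 5ppase and 70188 in control. Gfap gave 7408 in 5ppase and 17525 in control, whereas Slc1a2 (25.7 and 24.1) and Gjb6 (8.6 and 36.8) did not reach the floor on either array. Fibrillar collagen, a product of fibroblasts, was bright on both arrays, with Col1a1 at 32415 in 5ppase and 32792 in control. The 12 fibroblast, meningeal and mural markers summed to 120097 in 5ppase and 116392 in control, with 4 of the 9 compared above 0. Within this list Mgp gave 198.7 in 5ppase and 1902 in control (log2 ratio -3.26), and Myh11 gave 1937 in 5ppase and 857 in control (1.18). The 11 oligodendrocyte lineage markers summed to 2250 in 5ppase and 3912 in control, with 6 of them at or under the floor on both arrays. Cldn11 was under the floor on the 5ppase array alone (47.2 in 5ppase and 1371 in control), at least 22.1-fold lower in 5ppase. The part of cell composition in the results below was not tested.

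Most synthesis genes had higher signals in 5ppase than in control, while most storage and oxidation genes differed little or were lower. Of the 10 compared synthesis genes 9 had a ratio above 0, as did 47.9% of all compared genes, and under quantile normalization or after removal of a loess trend all 10 did. Their median log2 ratio was 0.48 (1.39-fold). Of the 10, 3 were at least 1.5-fold higher in 5ppase, beside 5.25% of all compared genes, and 0 were that much lower, beside 5.46%. The other 26 compared members had a median of -0.096, with 9 above 0 and 17 below, beside 52.1% of all compared genes below 0, so the 2 medians lay 0.57 apart. All 10 synthesis genes had a ratio above that median of the others, and 8 lay above each of the 7 compared oxidation genes. Many of all 8261 compared genes lie above these marks too. The median of the others falls between Hadha and Dgat1, which ranked 4700th and 5328th from the highest. The highest oxidation gene, Hadhb, ranked 2838th.

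**Figure D1:**
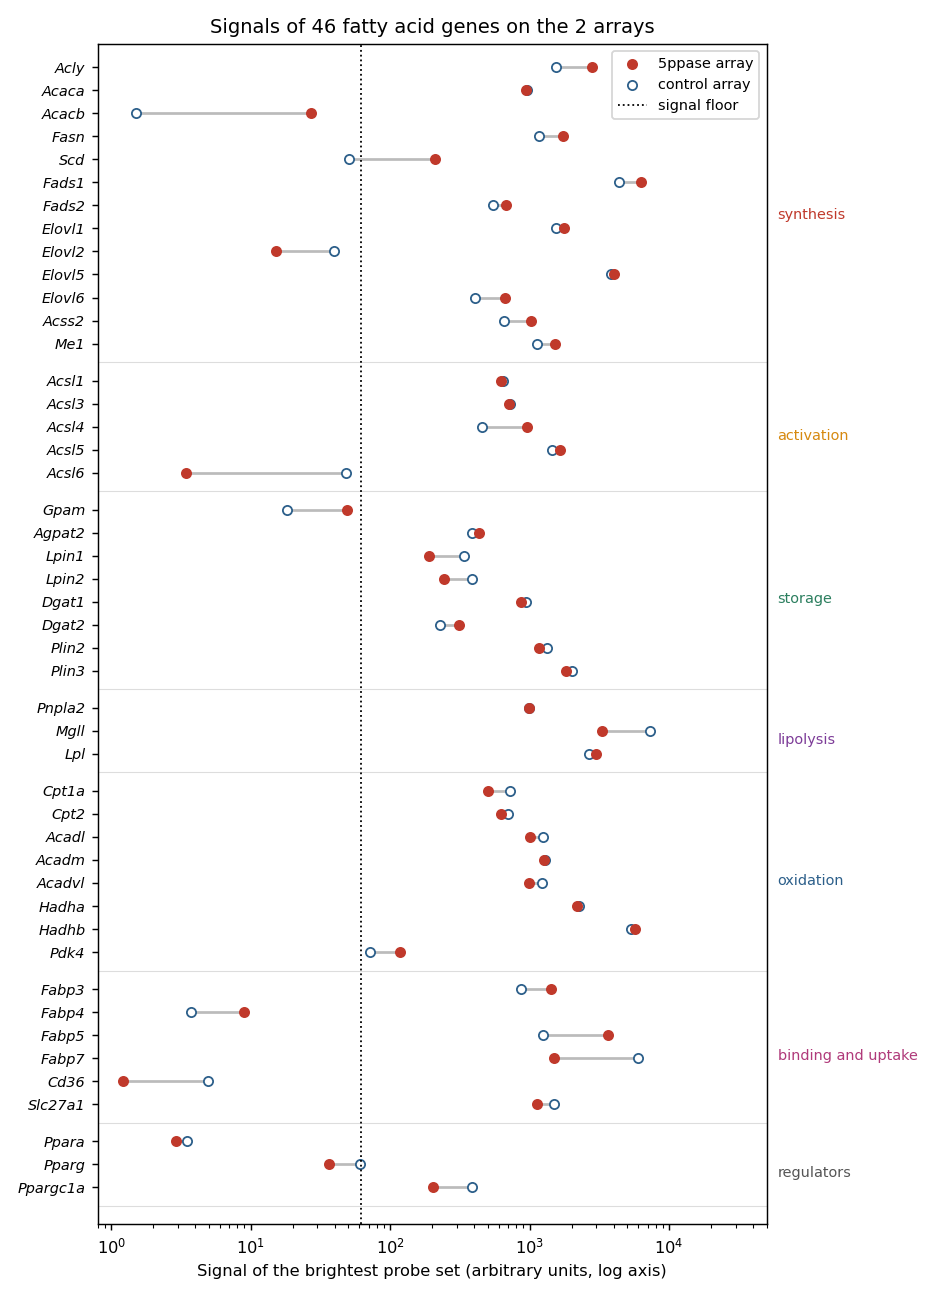
Signal of the brightest probe set of each of the 46 genes on the 5ppase array (filled) and the control array (open), on a log axis in arbitrary units, grouped by role, with the floor of 62.0 dotted. Synthesis genes above the floor have the 5ppase point to the right of the control point or nearly on top of it, and Fabp7 and Mgll have it far to the left.

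At the entry to synthesis, Acly gave 2803 in 5ppase and 1549.6 in control, a log2 ratio of 0.85 (1.81-fold) that is 3.35 times the probe set spread. Acly has 1 probe set, so that spread comes from other genes, and it does not measure variation between cultures. Acly had the highest ratio of the compared synthesis genes and ranked 191st of the 8261 genes. Acss2, which makes cytosolic acetyl-CoA from acetate, gave 1025 in 5ppase and 654 in control (0.65). The malic enzyme Me1, a source of NADPH for fatty acid synthesis, gave 1507 in 5ppase and 1131 in control (0.41), and 1494 and 1069 at a second probe set (0.48). These 3 genes of acetyl-CoA and NADPH supply all had higher signals in 5ppase.

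Fasn gave 1720.2 in 5ppase and 1169 in control (0.56). Its second probe set read a smaller difference, 638 in 5ppase and 554 in control (0.20), which is under the probe set spread. Acaca, the rate-limiting cytosolic carboxylase, gave 941 in 5ppase and 952 in control (-0.017), and the sign of this ratio turned under quantile normalization and loess. A second, dim probe set of Acaca gave 73.4 and 100.5. The mitochondrial isoform Acacb did not reach the floor (27.1 and 1.5).

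Among the elongases, Elovl6, which lengthens palmitate to stearate, gave 668 in 5ppase and 406 in control (0.72), and 514 and 291 at its second probe set (0.82). Elovl1, which acts on very long saturated chains, gave 1767 in 5ppase and 1540.1 in control (0.20). Elovl5, which lengthens polyunsaturated chains, gave 4043 and 3852 (0.07), with a second probe set on the other side of 0 (469.7 and 511, -0.12). These last 2 elongases lay within the probe set spread. Elovl2, also an elongase of polyunsaturated chains, was under the floor on both arrays.

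The 3 desaturases pointed one way. Fads1, the delta-5 desaturase, gave 6302 in 5ppase and 4345 in control (0.54), and Fads2, the delta-6 desaturase, gave 673 in 5ppase and 545 in control (0.30). The stearoyl-CoA desaturase Scd, which makes oleate from stearate, gave 209 in 5ppase and 50.3 in control. Since the control signal is under the floor, Scd has only a bound, at least 3.37-fold higher in 5ppase. Its 5ppase signal lay just above the 208 required, and with Scd at its bound the synthesis median was 0.54.

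The windows before the starts of Acly and Scd are printed because these were the synthesis genes with the largest differences. Both come from RefSeq on GRCr8, run 5′ to 3′ on the gene's strand and end at the base before the annotated start, with a CCAAT box in capitals. Acly lies on the minus strand at chr10:85963632-85963881 and holds 1 box, on its own strand, whereas Scd at chr1:253231732-253231981, also on the minus strand, holds 0 in this window.
Acly: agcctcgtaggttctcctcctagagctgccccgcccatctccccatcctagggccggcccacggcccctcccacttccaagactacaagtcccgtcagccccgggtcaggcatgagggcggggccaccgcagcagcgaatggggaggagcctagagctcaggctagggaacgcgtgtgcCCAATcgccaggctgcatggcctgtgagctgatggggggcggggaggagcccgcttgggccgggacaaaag
Scd: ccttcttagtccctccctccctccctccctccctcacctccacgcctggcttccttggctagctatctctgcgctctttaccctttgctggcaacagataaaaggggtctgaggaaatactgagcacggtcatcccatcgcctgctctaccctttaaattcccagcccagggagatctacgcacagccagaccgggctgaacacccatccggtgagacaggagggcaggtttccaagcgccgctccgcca

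Acyl-CoA synthetases, which attach fatty acids to coenzyme A, were split. Acsl4, the isoform that prefers arachidonic acid, gave 953 in 5ppase and 457 in control, a log2 ratio of 1.06 (2.08-fold). It was 1 of 2 members at least 2-fold higher in 5ppase, beside 1.5% of all compared genes. The other compared isoforms lay within the probe set spread at their brightest probe sets. Acsl1 gave 621 in 5ppase and 643 in control (-0.05), Acsl3 gave 713 and 720.2 (-0.014; positive under quantile normalization and loess), and Acsl5 gave 1651 and 1456 (0.18). Second probe sets gave 272 and 332 for Acsl1 (-0.29) and 264 and 182 for Acsl5 (0.53). Acsl6 was under the floor on both arrays.

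Genes of triglyceride assembly and storage had a median of -0.15 over 7 compared members, of which 2 lay above 0 and 5 below. The phosphatidate phosphatases of the lipin family, which make diacylglycerol, had the lowest ratios. Lpin2 gave 242 in 5ppase and 384.5 in control (-0.67), and Lpin1 gave 189 in 5ppase and 338 in control (-0.84). The Lpin1 difference was not repeated by its second probe set, which gave 225 and 210.5 (0.10) and reached the required signal on both arrays. The probe set of Lpin1 with the higher mean reached that signal on the control array alone. A second probe set of Lpin2 was dim (58.5 and 70.8).

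The final step of triglyceride synthesis is carried out by the enzymes Dgat1 and Dgat2. Dgat2 gave 310 in 5ppase and 228 in control (0.44), and 281 and 139 at its second probe set, a log2 ratio of 1.02, where the 5ppase array alone reached the required signal. Dgat1 gave 866 in 5ppase and 945 in control (-0.13). Agpat2, which adds the second acyl chain, gave 434.5 in 5ppase and 389 in control (0.16). The droplet coat proteins lay slightly under 0. Plin2 gave 1162 in 5ppase and 1340 in control (-0.21; -0.33 at a second probe set, with 821 and 1031), and Plin3 gave 1812 and 2004 (-0.15). Gpam, the mitochondrial acyltransferase that starts the pathway, was under the floor on both arrays.

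Among the lipases, monoacylglycerol lipase (Mgll), which completes triglyceride breakdown and also degrades the endocannabinoid 2-arachidonoylglycerol, stood apart. Mgll gave 3323 in 5ppase and 7285 in control, a log2 ratio of -1.13 (2.19-fold higher in control), and ranked 81st from the lowest of 8261. Its other probe sets gave 2352 in 5ppase and 4086 in control (-0.80), 1746 and 3758 (-1.11), and, too dim for comparison, 52.3 and 141.6. All of its probe sets therefore read lower signals in 5ppase. Pnpla2, the lipase that starts triglyceride breakdown, gave 988 in 5ppase and 984 in control (0.0047, negative with common median scaling). Lipoprotein lipase (Lpl), which frees fatty acids from circulating lipoproteins, gave 2978 in 5ppase and 2658 in control (0.16).

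The window before the start of Mgll is shown as that of the lipase with the largest difference. It lies on the plus strand of GRCr8 at chr4:122749186-122749435 (RefSeq) and holds 1 CCAAT box, read as ATTGG because it is on the opposite strand.
Mgll: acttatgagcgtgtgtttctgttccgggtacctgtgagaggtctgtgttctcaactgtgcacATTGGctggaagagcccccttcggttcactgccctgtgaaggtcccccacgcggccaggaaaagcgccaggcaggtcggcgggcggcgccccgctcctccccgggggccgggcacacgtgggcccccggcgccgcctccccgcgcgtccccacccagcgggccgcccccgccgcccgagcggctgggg

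**Figure D2:**
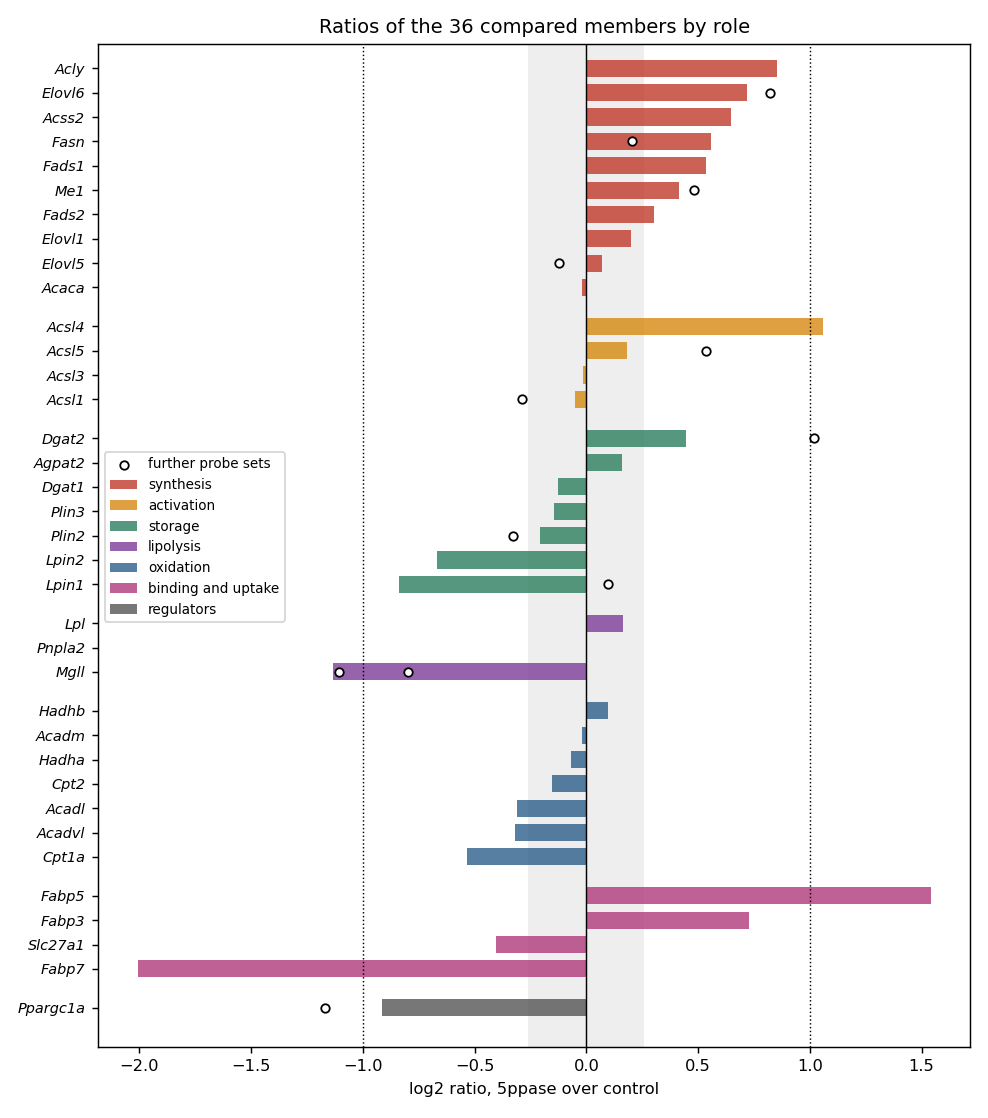
Bars give the log2 ratio, 5ppase over control, of the brightest probe set of each of the 36 compared genes by role, open circles give further compared probe sets of the gene, the grey band spans 1 probe set SD (0.26) either side of 0, and dotted lines mark 2-fold. Synthesis bars extend to the right except for Acaca, oxidation bars are short, and the circles of Lpin1 and Elovl5 lie on the opposite side of 0 from their bars.

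Oxidation genes differed little. All 7 compared members lay within 1.5-fold, as did 89.3% of all compared genes, with a median of -0.15 and 6 of 7 below 0 (5 of 7 after loess, where Acadm turned positive). Cpt1a, the outer membrane transferase that controls entry of fatty acids into mitochondria, was the lowest, at 499 in 5ppase and 722 in control (-0.53). Its dim second probe set gave 178 and 204. The very long chain dehydrogenase Acadvl gave 989 in 5ppase and 1235 in control (-0.32), and the long chain dehydrogenase Acadl gave 1012 and 1256 (-0.31).

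The remaining oxidation enzymes lay within the probe set spread. Cpt2, which regenerates acyl-CoA inside mitochondria, gave 623 in 5ppase and 693 in control (-0.15). The medium chain dehydrogenase Acadm gave 1260.3 in 5ppase and 1278 in control (-0.021). The trifunctional protein subunits, which carry out the last steps of each cycle, gave 2171 in 5ppase and 2274 in control for Hadha (-0.067) and 5737 and 5357 for Hadhb (0.099). Pdk4, a kinase that shuts pyruvate out of the mitochondrial cycle, was too dim for comparison, at 117.5 in 5ppase and 72.0 in control, with 75.7 and 93.4 at its second probe set.

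Fatty acid binding proteins, small cytosolic carriers, went in opposite directions and held the extremes of the list. Fabp7, the brain type of radial glia and astrocytes, gave 1486 in 5ppase and 5972 in control, a log2 ratio of -2.01 (4.02-fold higher in control). It ranked 11th from the lowest of the 8261 genes. Fabp5, the epidermal type, gave 3637 in 5ppase and 1250.1 in control, a log2 ratio of 1.54 (2.91-fold), at rank 32 from the highest. Fabp3, the heart and muscle type, gave 1432 in 5ppase and 865 in control (0.73). The ratios of Fabp5 and Fabp7 were 3.55 apart on the log2 scale. Each of these 3 genes has 1 probe set, so none has an internal repeat.

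Most other compared markers of astrocytes and progenitors also had lower signals in 5ppase, but not all. Of the bright astrocyte markers, S100b (3611 in 5ppase and 3483 in control) and Gja1 (7656 and 7282) were slightly higher in 5ppase. Aldh1a1 was nearly equal (18242.5 in 5ppase and 19055 in control). Besides the astrocyte list above, 5 of the 6 compared markers of radial glia and neural progenitors had ratios below 0, with 0 of them 2-fold lower and summed signals of 51568 in 5ppase and 51673 in control. Vim (40821 in 5ppase and 37513 in control) carried most of these sums, and the other 8 markers summed to 10747 in 5ppase and 14160 in control. Slc1a3 is in both this list and the astrocyte list. Of 4 compared neuron markers, Stmn2 (11066 in 5ppase and 3766 in control) and Tubb3 (290.2 and 87.9, bright enough on the 5ppase array alone) had higher signals in 5ppase. Gad1 (422.2 in 5ppase and 998 in control, -1.24) and Map2 (1210.1 and 1737, -0.52) had lower signals in 5ppase, and 8 of 13 neuron markers were at or under the floor on both arrays. The 13 neuron signals summed to 13255 in 5ppase and 6757 in control, but without Stmn2 the other 12 summed to 2190 in 5ppase and 2991 in control. What these markers contribute to the Fabp ratios was not tested.

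Fabp7 is shown for the lowest ratio of the list. Its 250 bases before the start lie on the plus strand of GRCr8 at chr20:37669356-37669605 (RefSeq) and hold 3 CCAAT boxes, all on the opposite strand and printed as ATTGG.
Fabp7: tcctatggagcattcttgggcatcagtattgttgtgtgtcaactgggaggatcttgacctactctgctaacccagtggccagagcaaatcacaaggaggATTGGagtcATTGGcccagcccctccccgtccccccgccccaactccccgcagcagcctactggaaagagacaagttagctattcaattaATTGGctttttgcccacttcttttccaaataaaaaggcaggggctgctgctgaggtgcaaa

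Of the uptake proteins, the transporter Slc27a1 gave 1122 in 5ppase and 1485 in control (-0.40). The scavenger receptor Cd36 and the adipocyte and macrophage carrier Fabp4 were under the floor on both arrays, at 1.2 and 8.9 in 5ppase and 4.9 and 3.7 in control. The same held for 6 of 8 adipocyte markers on the array, Adipoq, Cfd, Plin1 and Lep among them, and for 7 of 12 microglial and macrophage and 7 of 10 endothelial markers. The adipocyte list includes the members Fabp4 and Lpl. The adipocyte sums, 3243 in 5ppase and 2840 in control, came mostly from Lpl. The microglial and macrophage sums were 4440 in 5ppase and 2769 in control, with Tmem119 (2273 and 1078) and Cd14 (1819.8 and 1428) as the compared markers, and the endothelial sums were 651 and 501.5.

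The regulator Ppargc1a, the coactivator PGC-1 alpha of mitochondrial and oxidation genes, gave 204 in 5ppase and 385 in control (-0.91). A second probe set gave 116.1 in 5ppase and 261 in control (-1.17), and another stayed below the floor (21.2 and 2.2). The brightest probe set reached the required signal on the control array alone. The nuclear receptors Ppara (2.9 in 5ppase and 3.5 in control) and Pparg (36.5 and 60.7) were under the floor on both arrays.

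**Figure D3:**
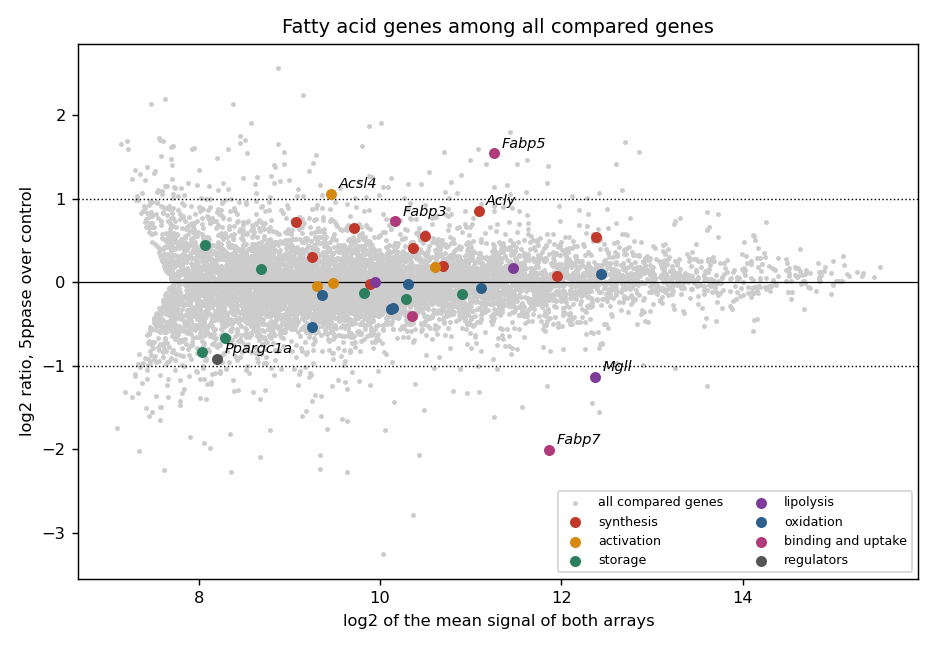
Log2 ratio, 5ppase over control, against the log2 of the mean signal of both arrays for the 8261 compared genes (grey) and the 36 compared fatty acid genes (coloured by role), with dotted lines at 2-fold. Fabp5 and Acsl4 lie above the upper line, Fabp7 and Mgll below the lower one, and dim genes scatter more widely than bright ones.

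Further compared probe sets give a limited check on single members. There were 12 of them, for 11 genes (Mgll has 2), and 10 had the sign of the brightest probe set (83.3%). The share was 65.7% over the 1881 genes with 2 compared probe sets, which counts only the second brightest of each gene. The 2 shares are not like for like, since also fewer compared members (69.4%) than compared genes in all (89.3%) lay within 1.5-fold. The exceptions were Elovl5 and Lpin1. Members without a second probe set, and so without this check, include Acly, Acss2, Fads1, Fads2, Acsl4, Fabp3, Fabp5 and Fabp7. At the other end, the 8 dim members other than Pdk4 ran from 1.2 to 49.1 in 5ppase and from 1.5 to 60.7 in control, and no ratio is given for them.

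Over all members, 2 of the 36 compared genes were at least 2-fold higher in 5ppase (Fabp5 and Acsl4), beside 1.5% of all compared genes. The 2 at least 2-fold lower were Fabp7 and Mgll, beside 1.42%. At 1.5-fold there were 6 higher, which adds Acly, Elovl6, Acss2 and Fabp3, and 5 lower, which adds Lpin1, Lpin2 and Ppargc1a, beside 5.25% and 5.46% of all compared genes. No compared synthesis gene reached 2-fold, whereas none of the 5 lower genes was a synthesis or oxidation gene.

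Further genes of the same pathways were taken from 8 lists of 147 genes that are not members. Of the 95 compared, 86 lay within 1.5-fold (90.5%) and the median was 0.02. The list of other synthesis and elongation genes had a median of 0.02 over 13 genes, 12 of them within 1.5-fold, against 0.48 for the synthesis members. With 9 above 0 and 4 below, beside 47.9% of all compared genes above 0, the list ran from -0.70 to 0.54. Its brightest genes were the desaturase Scd2 (6543 in 5ppase and 6450.5 in control, 0.02) and the sphingolipid desaturase Degs1 (9315 and 9219, 0.015). Second probe sets were lower in 5ppase for both, at -0.35 for Scd2 and -0.26 for Degs1.

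The sterol-sensing axis held larger differences in both directions, with a median of 0.14 over 14 compared genes. Of these, 4 were at least 1.5-fold higher, beside 5.25% of all compared genes, and 2 at least 1.5-fold lower, beside 5.46%. Idi1 and Fdft1, enzymes of isoprenoid and sterol synthesis, gave 2984.5 in 5ppase and 1085 in control (1.46) and 1212 and 525 (1.21), with 1.88 and 0.54 at their second probe sets. Insig1, which retains SREBP precursors in the endoplasmic reticulum and is itself an SREBP target, gave 3634 in 5ppase and 1967.5 in control (0.89). Srebf2, the SREBP of sterol synthesis, gave 1014 in 5ppase and 753.5 in control (0.43). Srebf1, whose SREBP-1c form drives fatty acid synthesis, ran the other way from the synthesis genes, at 1641.5 in 5ppase and 3366 in control (-1.04), and at 493 and 851 at its second probe set (-0.79).

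The lists of other oxidation genes had medians near 0. All 18 compared mitochondrial genes lay within 1.5-fold, as did 89.3% of all compared genes. Their median was 0.016, with 10 above 0 and 8 below, from -0.38 to 0.52. The brightest were Eci1 (1952.5 in 5ppase and 2524 in control, -0.37) and Etfb (2682 and 3147, -0.23). The 6 compared peroxisomal genes had a median of -0.068, with Scp2 at 8050 in 5ppase and 9397 in control (-0.22) and Hsd17b4 at 2119 and 2319 (-0.13). Eci1 is read by a probe set of the _s_at kind, which can read related transcripts.

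In the lists of assembly, lipolysis, binding and regulation, 2 of the 44 compared genes were 2-fold apart, beside 2.92% of all compared genes. The thioesterase Acot7, which releases fatty acids from acyl-CoA, gave 893 in 5ppase and 331 in control (1.43), though a dim second probe set gave 55.9 and 80.8. Hormone-sensitive lipase (Lipe) gave 224 in 5ppase and 107.1 in control (1.07), so that it reached the required signal on the 5ppase array alone, with its second probe set under the floor on both arrays. Medians were -0.0059 over 13 assembly and droplet genes (Agpat5 -0.05, Lpcat3 0.20) and 0.094 over 8 lipolysis genes. They were 0.085 over 11 binding, uptake and thioester genes and -0.043 over 12 receptors, kinases and coactivators (Pdk2 -0.51, Pdk3 -0.13).

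**Figure D4:**
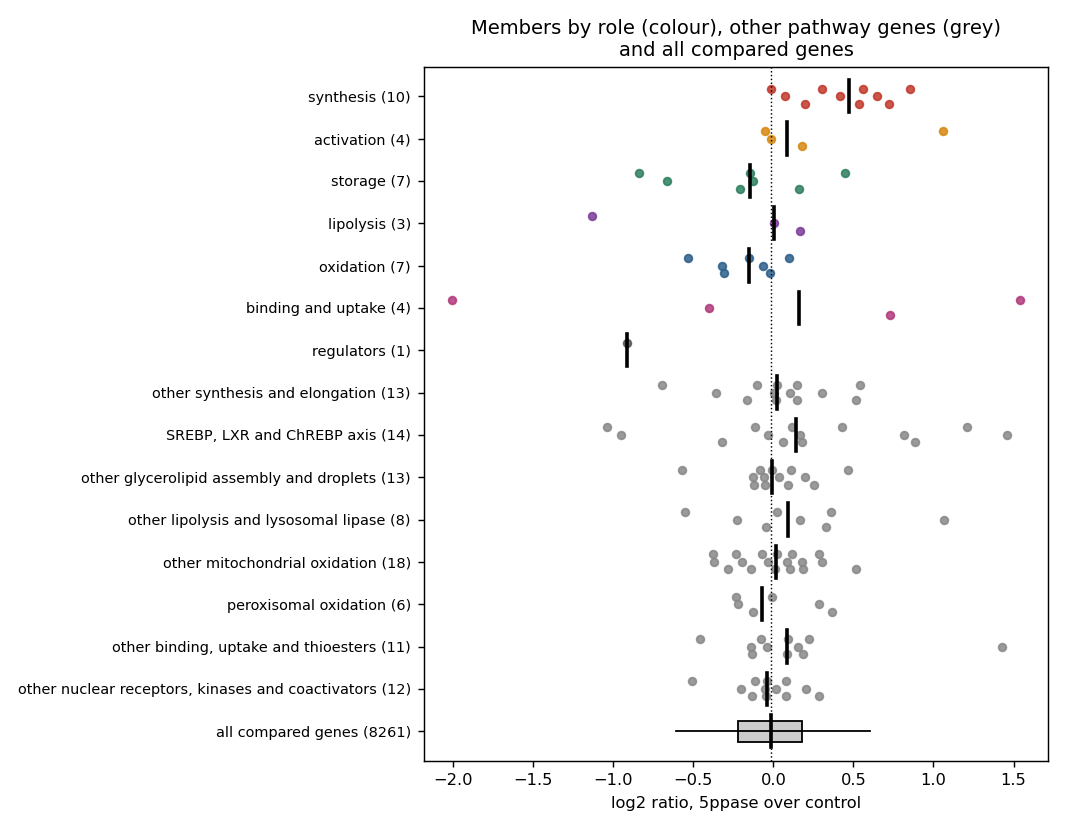
Each point is the log2 ratio, 5ppase over control, of 1 compared gene, for members by role (coloured) and for other pathway genes (grey), with numbers of genes in brackets and black bars at the medians; the box spans the middle 50% of all 8261 compared genes and its line runs from the 5th to the 95th percentile. The synthesis members have a median of 0.48, and the other lists of over 3 genes have medians between -0.15 and 0.16.

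In the RefSeq windows (250 bases before and 50 after each start, GRCr8), 38 members had a window and 4 motifs were searched on both strands. The CCAAT box (CCAAT), bound by NF-Y, was in 18 of the 41 windows of these members (43.9%), and in 37.5% of all 33469 windows in the table. By gene, it was found for 5 of 11 synthesis members and 13 of 27 other members. The core of the sterol regulatory element (TCACNCCAC) was in 0 of the members' windows and 1.12% of all windows. Direct repeats of AGGTCA with any 1 base between them, bound by PPAR, or with any 4 bases between them, bound by LXR, were in 0 of the members' windows and in 0.0538% and 0.00598% of all windows. A match is a description of letters and not a binding site, and no match says only that these letters are not in the window.

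**Figure D5:**
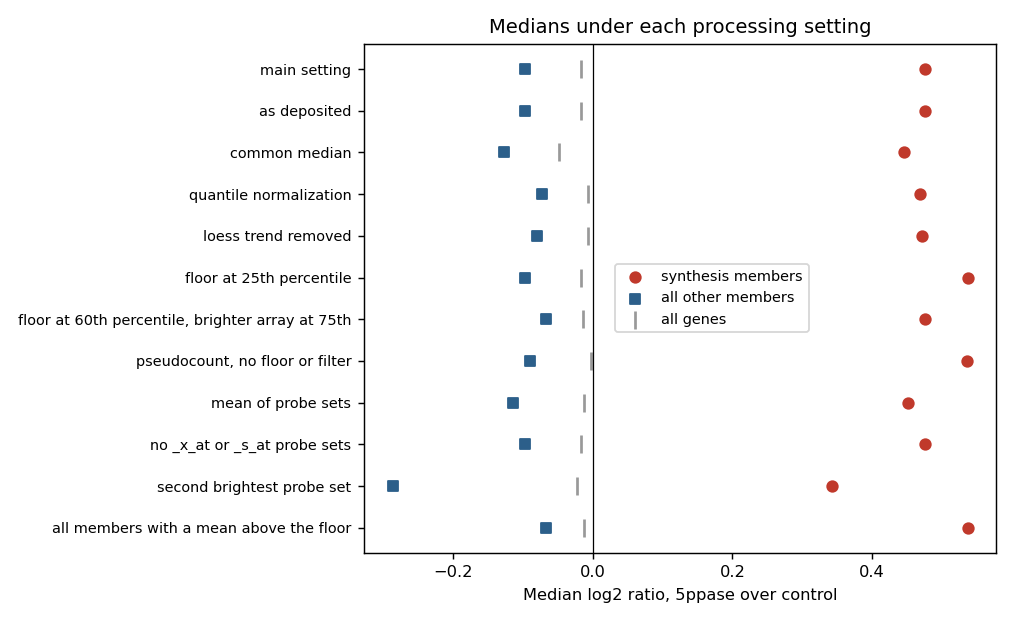
Median log2 ratio, 5ppase over control, of the synthesis members (circles), all other members (squares) and all genes (grey ticks) under each processing setting. In each of the 12 settings the synthesis median lies above 0, between 0.34 and 0.54, and the median of the other members below 0, between -0.29 and -0.067.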

How the data were processed

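Signals came from 1 5ppase array and 1 control array, grouped by title. The values deposited by the authors are linear single-colour intensities, 1 per probe set, from MAS5 per the submitters' processing notes, with no version named there; detection calls were not used. Both arrays as deposited have equal trimmed means (2% removed at each end), which leaves any trend with signal in place. No column of another sample was present (0).

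A platform table of possibly outdated annotation gave 1 symbol to 20832 of 31099 probe sets, several to 436 and none to 9831; only the first were named, and 20764 matched a current RefSeq entry. Each gene was read from the probe set with the highest mean of both arrays. Signals under the pooled 40th percentile (62.0) were raised to it before log2, and a gene was compared if above it on both arrays and at the pooled 60th percentile (208) on at least 1. The floor understates ratios of dim genes. No test was run.

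The members, lists and settings were chosen with earlier results of these data known. Values are given for every compared member and its compared further probe sets. From each other list up to 4 genes at least 2-fold apart are named or, if there was none, the 2 brightest, besides Srebf1, Srebf2, Insig1, Gfap and Fabp7 whatever their values; other markers were named after their values were seen. Alternatives were no rescaling, a common median, quantile normalization, loess (span 0.3), other floors (25th and 60th percentiles), a pseudocount (6.4), other choices of probe set, and 1.5-fold and 3-fold thresholds. The procedure was run on simulated data with large changes put only into bright genes. That run cannot speak to dim genes, smaller ratios or variation between cultures. A comparison of carrier protein sequences was not made. Python 3.11.15 with numpy 2.4.6, pandas 2.3.3 and statsmodels 0.14.6 was used.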

Additional observations from a re-analysis of the deposited data

How the results depend on the processing

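The difference between the synthesis median and the median of the other members kept its sign and moved by at most 0.1 (log2) under each of 10 other settings of scaling, floor and probe set. The same held under a setting chosen after seeing the data (all members with a mean above the floor). Some settings could not move the difference. No rescaling and a common median shift both medians equally and left it at 0.57. Leaving out _x_at and _s_at probe sets, from which no member is read, did so too. Both medians also kept their signs and moved by at most 0.1, except with the second brightest probe sets. Those left 4 synthesis genes with a median of 0.34 and 7 others with -0.29, fewer genes by construction. They also gave 1 member at least 2-fold higher in 5ppase (Dgat2) and 1 lower (Ppargc1a, -1.17), against 2 and 2, beside 1.86% and 1.59% of all genes compared that way. Neither is among the 2 and 2 of the main setting. Of those, Fabp5, Acsl4 and Fabp7 have 1 probe set and drop out by construction, and Mgll fell short of 2-fold. With a pseudocount and no floor, under which all 46 members count, 5 were higher and 4 lower, beside 7.81% and 6.86% of all 14218 genes. At 1.5-fold there were 6 higher and 5 lower (all compared genes: 5.25% and 5.46%), and at 3-fold 0 and 1 (0.327% and 0.315%). For single members, 324 of 330 values stayed within the probe set spread of the value reported. Several settings, among them no rescaling and the other floors, return practically the same single ratios by construction, so this count says little about robustness. The values that moved further came from second probe sets or the mean of probe sets. Of the members at least 1.5-fold apart, Lpin1 changed sign, at 0.098 with its second probe set. With the mean of its probe sets Lpin1 kept its sign but moved to -0.41. The cause was not tested. Smaller ratios changed sign too, that of Elovl5 with its second probe set (-0.12) and those of Acaca, Acsl3, Pnpla2 and Acadm under another scaling. Second probe sets also moved Fasn to 0.20, Acsl5 to 0.53, Dgat2 to 1.02 and Mgll to -0.80. No paired analysis was possible because each group has 1 array. Low signal limits the 9 dim members and Scd, whose comparison rests on a 5ppase signal close to the threshold; with a 25th percentile floor it was compared and 3 members were at least 2-fold higher.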
